A study of Mus musculus with 4 samples.

Results

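The 34 type I interferon-stimulated genes described here are members by a fixed list of symbols, which was drawn up with earlier results of these data known. Each matched a single row of the 47729 genes counted, and each was among the 12536 genes with enough counts to be tested. Between TfR1-deficient and WT Treg cells their median log2 fold change was 0.01, with 1 gene (*Irf1*) lower and 0 higher at an edgeR unadjusted p under 0.05 and a change of at least 0.5 (2.48% and 1.60% of all genes), and 0 after adjustment. A wider separation lay between the 2 TfR1-deficient libraries, where 30 of the 34 genes were higher in replicate 1 than in replicate 2 (88.2%, against 53.4% of all genes). The same order held for 42 of the 66 other interferon pathway genes tested (63.6%).

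RNA was sequenced from CD25+YFP+ Treg cells sorted from adult female C57BL/6 mice, with 2 libraries from *Tfrc* fl/fl *Foxp3* YFP-Cre/+ animals (TfR1-deficient) and 2 from *Tfrc* +/+ *Foxp3* YFP-Cre/+ animals (WT). TfR1, encoded by *Tfrc*, is the receptor that brings transferrin-bound iron into the cell. All 4 libraries thus carry a YFP-Cre fusion in one copy of the X-linked *Foxp3* gene, so that Cre was made only in Treg cells using that copy, and the YFP sort selected those cells. The sample labels name the spleen as the source, a legend in the study adds lymph nodes, and the number of animals behind each library is not given in the sources used here. The p-values therefore measure the spread between these libraries, which may be technical in part.

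Type I interferons (interferon alpha and beta) bind the receptor formed by IFNAR1 and IFNAR2, which activates the kinases JAK1 and TYK2. These act on the transcription factor STAT2, which joins IRF9 in the complex ISGF3. ISGF3 binds the interferon-stimulated response element (ISRE) in promoters and switches on antiviral genes, while interferon gamma acts mainly through a different motif, the gamma-activated site (GAS). T cells, including Treg cells, carry these receptors and hold a basal level of many such transcripts.

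Promoter windows in RefSeq (GRCm38.p6, 250 bases before to 50 bases after the transcription start) were found for 25 of the 34 genes and not for *Mx1*, *Usp18*, *Ifi27l2a*, *Parp9*, *Parp14*, *Dhx58*, *Zbp1*, *Oas2* and *Rtp4*. The ISRE was searched on both strands as GAAA, any 2 bases, then GAAA. It was found in 11 of the 25 genes (44.0%), against 1079 of the 27025 genes with a window (3.99%). The 11 genes were *Ifit1*, *Ifit3*, *Isg15*, *Ifitm3*, *Rsad2*, *Oas3*, *Bst2*, *Stat2*, *Eif2ak2*, *Ddx58* and *Ifih1*. The GAS, searched as TTCNNNGAA, was found in 7 of the 25 (28.0%), against 9.55% of all genes. A match is a run of letters and not a measured binding site. The windows below belong to genes whose values carry the results that follow. Each is read 5′ to 3′ on the strand of its gene, with the motif in capitals and its first base counted from the start site.
*Ifit1*, ISRE in reverse orientation at -104, chr19:34640775-34640804, plus strand: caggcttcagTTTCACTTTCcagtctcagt
*Ifit1*, ISRE in reverse orientation at -85, chr19:34640794-34640823, plus strand: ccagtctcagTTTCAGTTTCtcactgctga
*Ifit3*, ISRE in reverse orientation at -122, chr19:34583397-34583426, plus strand: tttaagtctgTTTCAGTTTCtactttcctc
*Isg15*, ISRE at -72, chr4:156200871-156200900, minus strand: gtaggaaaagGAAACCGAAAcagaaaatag
*Ifitm3*, ISRE at 20, chr7:141010706-141010735, minus strand: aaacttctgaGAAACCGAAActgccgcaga
*Rsad2*, ISRE in reverse orientation at -120, chr12:26456553-26456582, minus strand: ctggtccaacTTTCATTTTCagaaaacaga
*Irf1*, GAS at -90, chr11:53769914-53769942, plus strand: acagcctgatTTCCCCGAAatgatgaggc
*Ifit1*, *Ifit3* and *Ifitm3* each held a pair of separate ISRE matches, with those of *Ifit3* at -156 and *Ifitm3* at 3 not shown. *Ifitm3* also held a GAS at 14. The *Isg15* match shown is the middle one of 3 that overlap. *Isg15* and *Ifitm3* held the same 10 letters in capitals. *Irf1* had a GAS and no ISRE match in its window.

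Libraries held 10841939 to 17278448 counted reads, the most in TfR1-deficient replicate 1. Values are given as CPM, in the order of replicates 1 and 2 and with WT first (WT against TfR1-deficient). CPM are counts scaled to a common library size with TMM factors. *Tfrc* stood at 50.8 and 54.1 CPM in WT and 56.1 and 48.3 CPM in TfR1-deficient cells (log2 fold change -0.0065, standard error 0.16), and its whole-gene count therefore does not check the labels. The first principal component (62.6% of the variance) set WT replicate 1 and TfR1-deficient replicate 2 apart from the other 2 libraries. Those 2 libraries were also the richest in macrophage transcripts. The summed CPM of 15 macrophage markers was 1154 and 97.3 in WT replicates 1 and 2, and 71.3 and 3452 in TfR1-deficient replicates 1 and 2, with *Csf1r* (CSF-1 receptor) at 124, 1.97, 4.96 and 371 CPM and *Adgre1* (F4/80) at 65.5, 1.5, 1.44 and 213 CPM. Of the 15 markers, WT replicate 2 had 2 at 0 counts, TfR1-deficient replicate 1 had 1, and the other 2 libraries had 0. The Treg markers *Foxp3* (194 and 130.3 CPM in WT, 122 and 114 CPM in TfR1-deficient) and *Il2ra* (1151 and 1111 against 1087 and 853 CPM) were abundant in every library. *Siglech*, which marks plasmacytoid dendritic cells, the main producers of type I interferon, had 0 or 1 count per library. The 7 markers of these cells summed to 76.7 to 91.7 CPM. Most of this was *Bst2*, itself an interferon-stimulated gene of the list (47.6 to 51.6 CPM), and *Ccr9* (19.4 to 30.3 CPM). For *Ccr9*, *Tcf4* and *Ly6d*, named after their values were seen, both TfR1-deficient libraries lay above both WT libraries. *Bst2* overlapped, and the others had at most 3 counts per library. The 6 Treg markers summed to 4118 and 3761 CPM in WT and 3206 and 2851 CPM in TfR1-deficient cells, so both TfR1-deficient sums were the lower ones. Of these, *Ctla4*, an inhibitory receptor named here after its values were seen, had the largest difference (log2 fold change -0.81, standard error 0.13, edgeR unadjusted p = 0.0014, adjusted p = 0.911, DESeq2 adjusted p = 0.00064), and the part of the Treg marker level in the genes called lower was not tested. The other lists ran from 3.0 to 8.61 CPM for neutrophils and monocytes, 25.5 to 42.5 CPM for B cells and 13.8 to 15.3 CPM for CD8 T and NK cells, and 3 erythroid genes summed to 10.2 and 67.8 CPM in WT and 24.8 and 179 CPM in TfR1-deficient cells.

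To ask whether deletion of *Tfrc* shifted the interferon response, each gene was compared between the 2 genotypes with edgeR's quasi-likelihood test. Following the study's rule, a gene was called when its unadjusted p was under 0.05 and its log2 fold change was 0.5 or more in either direction. By this rule 0 of the 34 genes were higher in TfR1-deficient cells, where 1.60% of all tested genes were, and 1 was lower, where 2.48% of all tested genes were. The unadjusted p of edgeR was under 0.05 for *Irf1* and *Dtx3l*. After Benjamini-Hochberg adjustment over all genes the lowest p among the 34 was 0.911, and edgeR called 0% of all genes, with 655 genes at an unadjusted p under 0.05. DESeq2 called 1 of the 34 higher (*Ifitm3*, against 1.64% of all genes) and 1 lower (*Irf1*, against 2.45%) before adjustment. After adjustment it called 0, against 0.0693% of all genes called higher and 0.366% called lower. Across the 34 genes log2 fold changes had a median of 0.01 (quartiles -0.06 and 0.30), beside 0.01 for all genes (quartiles -0.20 and 0.23). Of the 34, 19 were above 0 and 15 below, a split that moved to 24 and 10 when libraries were scaled by their totals alone. Leaving out 1 library moved the number called higher to 3 (without WT replicate 1), 1 (without TfR1-deficient replicate 1) or 4 (without TfR1-deficient replicate 2), and the number called lower to 0 (without WT replicate 1) or 2 (without WT replicate 2). Both TfR1-deficient libraries lay above both WT libraries for 6 genes (17.6%, against 16.0% of all genes) and below both for 3 (8.82%, against 18.9%). The 6 were *Oasl2*, *Ifitm3*, *Rsad2*, *Cmpk2*, *Ifi44* and *Ifi35*, and the 3 were *Irf1*, *Ifih1* and *Dtx3l*. For 1 gene on its own, permuting 2 libraries against 2 gives an exact p of 0.333 at best.

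**Figure D1:**
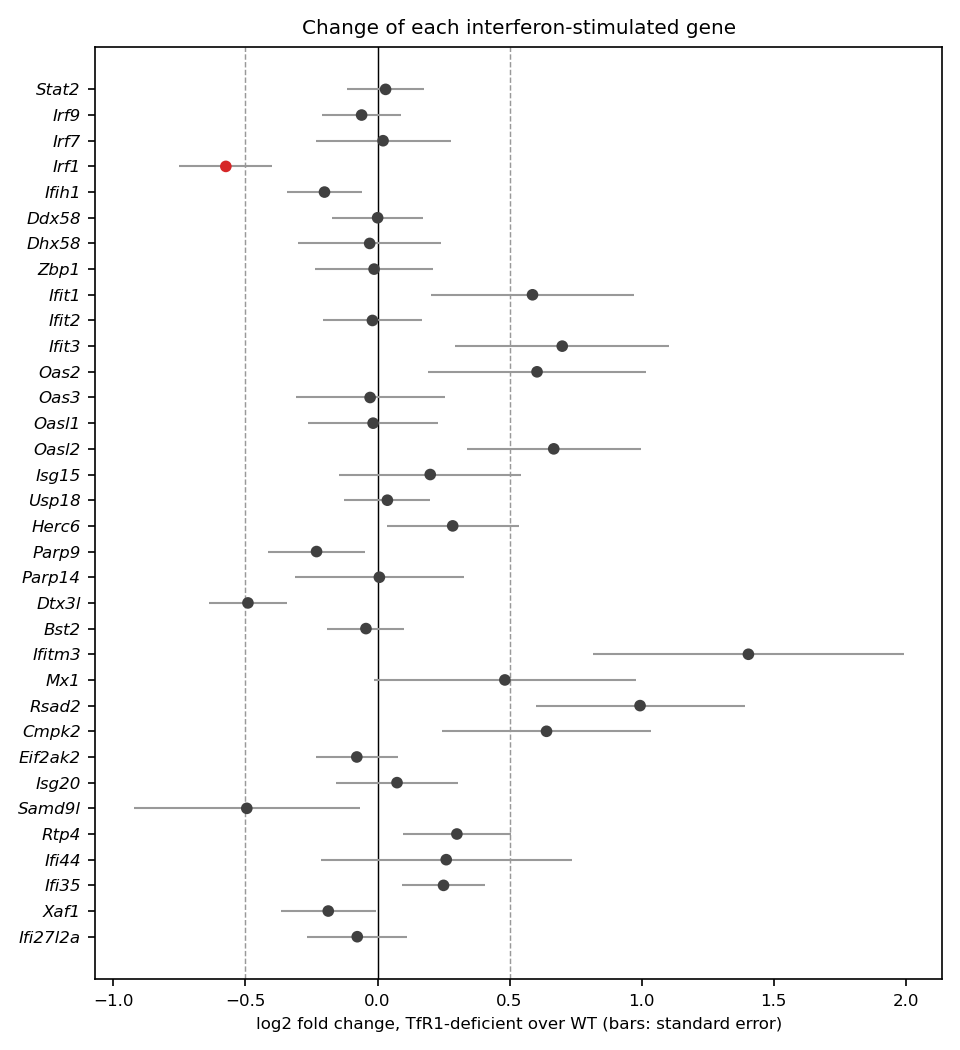
Log2 fold change (TfR1-deficient over WT, edgeR) of each of the 34 interferon-stimulated genes, ordered by role, with its standard error as a bar, the called gene in red and dashed lines at -0.5 and 0.5. The highest value is that of *Ifitm3* (1.40) and the lowest that of *Irf1* (-0.57).

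Of the 4 signalling factors, *Irf1* was called. *Irf1*, an IRF transcription factor induced by both interferon classes (chromosome 11, 53770014 to 53778374, GRCm38.p6), was at 199 and 154 CPM in WT and 115 and 123 CPM in TfR1-deficient cells. Both TfR1-deficient libraries lay below both WT libraries (log2 fold change -0.57, standard error 0.18, edgeR unadjusted p = 0.021, adjusted p = 0.911). The fall was -0.75 when WT replicate 2 was left out. The call was lost when WT replicate 1 (-0.36) or TfR1-deficient replicate 1 (-0.49) was left out. The ISGF3 subunits stayed close together across libraries. *Stat2* was at 188 and 195 CPM in WT and 209.7 and 182 CPM in TfR1-deficient cells (log2 fold change 0.031, standard error 0.14), and *Irf9* at 302 and 303 against 316 and 265 CPM (log2 fold change -0.06, standard error 0.15). *Irf7*, which amplifies the response, was at 163 and 156 CPM in WT and at 201 and 123 CPM in TfR1-deficient replicates 1 and 2. The highest and the lowest of its 4 values were thus both TfR1-deficient, and its log2 fold change was 0.021 (standard error 0.26).

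None of the 4 cytosolic nucleic acid sensors was called. *Ifih1*, which encodes the RNA sensor MDA5, was at 87.7 and 90.5 CPM in WT and 82.2 and 72.7 CPM in TfR1-deficient cells (log2 fold change -0.20, standard error 0.14, edgeR unadjusted p = 0.215), with no overlap between the groups. *Ddx58*, encoding RIG-I, was at 106 and 106 against 119 and 92.6 CPM, and *Zbp1*, a sensor of Z-form nucleic acid, at 154 and 166 against 190.2 and 127 CPM. For both, the highest and the lowest value came from TfR1-deficient replicates 1 and 2. *Dhx58*, encoding the regulator LGP2, was at 36.5 and 25.5 against 34.8 and 26 CPM, and there replicate 1 was the higher one in each genotype.

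The *Ifit* genes encode proteins that bind foreign RNA and block its translation, and 0 of the 3 were called. *Ifit1* was at 130.2 and 181 CPM in WT and at 316 and 151 CPM in TfR1-deficient replicates 1 and 2, so one TfR1-deficient library lay above both WT libraries and the other between them. Its log2 fold change was 0.59 (standard error 0.38, edgeR unadjusted p = 0.184), and it ranged from -0.0095 without TfR1-deficient replicate 1 to 1.02 without TfR1-deficient replicate 2, where it was called. *Ifit3* had the same pattern, at 47.3 and 63.1 CPM in WT and 124 and 55.2 CPM in TfR1-deficient cells (log2 fold change 0.70, standard error 0.41, edgeR unadjusted p = 0.143). Leaving out a TfR1-deficient library moved it to 0.033 (replicate 1) or 1.16 (replicate 2, called). *Ifit3* shares 51.5% of its 50-base stretches with its neighbour *Ifit3b*, so its count is uncertain, and *Ifit3b* itself was at 11.3 and 12.2 CPM in WT and 32.3 and 11.8 CPM in TfR1-deficient cells. *Ifit2* differed less, at 79.6 and 72.1 against 85.3 and 64.4 CPM (log2 fold change -0.019, standard error 0.19). The *Ifit1* and *Ifit3* windows printed above both hold the ISRE, and the *Ifit2* window holds a GAS only. The part of these motifs in the values was not tested.

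The OAS family makes, or is related to enzymes that make, the 2′-5′ oligoadenylates that activate RNase L. *Oasl2* was at 25.9 and 17.8 CPM in WT and 42.9 and 26.5 CPM in TfR1-deficient cells (log2 fold change 0.67, standard error 0.33, edgeR unadjusted p = 0.096), and the groups did not overlap, though by a narrow margin. *Oas2* was at 15.6 and 11.3 against 27.5 and 13.5 CPM (log2 fold change 0.60, standard error 0.41, edgeR unadjusted p = 0.201). Without TfR1-deficient replicate 2 both were called, at 0.97 for *Oasl2* and 1.02 for *Oas2*. *Oas3* was at 65.0 and 46.0 CPM in WT and 65.9 and 42.9 CPM in TfR1-deficient cells, higher in replicate 1 of each genotype, and *Oasl1* was flat at 13.7 and 13.5 against 14.3 and 12.6 CPM.

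ISG15 is a ubiquitin-like protein attached to other proteins, HERC6 attaches it in the mouse, and USP18 removes it and also restrains the receptor. *Isg15* was at 19.5 and 26 CPM in WT and 33.4 and 18.8 CPM in TfR1-deficient cells (log2 fold change 0.20, standard error 0.35). *Herc6* was at 33.9 and 35.4 against 51.2 and 33.2 CPM (log2 fold change 0.28, standard error 0.25), and *Usp18* at 121 and 133 against 143 and 117 CPM (log2 fold change 0.037, standard error 0.16). In these genes TfR1-deficient replicate 1 was the highest library and TfR1-deficient replicate 2 the lowest.

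DTX3L is a ubiquitin ligase that works with PARP9, and PARP14 belongs to the same family of ADP-ribosyltransferases. *Dtx3l* (chromosome 16, 35926515 to 35939027) was at 223 and 195 CPM in WT and 155 and 142 CPM in TfR1-deficient cells. Its groups did not overlap (log2 fold change -0.49, standard error 0.15, edgeR unadjusted p = 0.02, adjusted p = 0.911), and it missed the call by the size of its difference, which was -0.37 without WT replicate 1 and -0.59, a call, without WT replicate 2. *Parp9* was at 160.3 and 121 against 124 and 115 CPM (log2 fold change -0.23, standard error 0.18). Exons of *Parp9* and *Dtx3l* overlap on opposite strands over 9.4% and 8.0% of their length, and whether reads were counted by strand is not given in the sources used here. *Parp14* was at 81.3 and 91.4 CPM in WT and at 114 and 59.6 CPM in TfR1-deficient replicates 1 and 2, again the highest and the lowest of the 4 (log2 fold change 0.0071, standard error 0.32). *Dtx3l*, *Parp9* and *Parp14* lie on chromosome 16, as does *Tfrc* (32608896 to 32632794), the gene at which the genotypes differ. The part of DNA linked to the floxed *Tfrc* allele in their values was not tested.

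**Figure D2:**
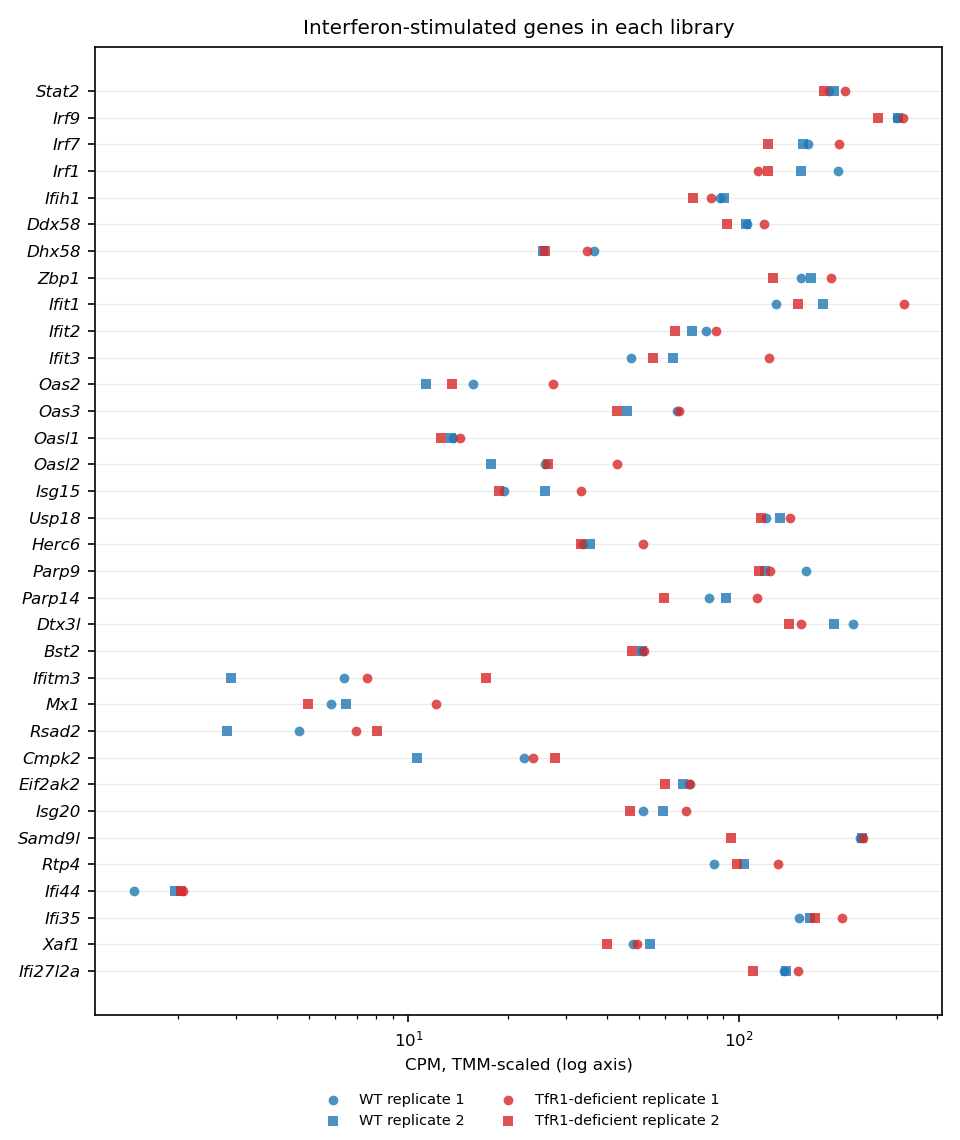
CPM (log scale) of each of the 34 genes in the 4 libraries, grouped by role. TfR1-deficient replicate 1 is the highest library for 25 genes and TfR1-deficient replicate 2 the lowest for 22.

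Of the membrane restriction factors, *Ifitm3*, which hinders virus entry, had the largest fold change of the 34. It was at 6.38 and 2.91 CPM in WT and at 7.49 and 17.2 CPM in TfR1-deficient replicates 1 and 2 (log2 fold change 1.40, standard error 0.59, edgeR unadjusted p = 0.061, DESeq2 unadjusted p = 0.025). Within each genotype it was highest in the library with more macrophage transcripts. Between the 2 libraries poor in those transcripts its log2 CPM was higher by 1.32 in the TfR1-deficient one, and its log2 fold change was 0.68 without TfR1-deficient replicate 2. It was called when WT replicate 1 (2.11) or TfR1-deficient replicate 1 (1.92) was left out. *Bst2*, encoding tetherin, was level at 51.2 and 51.1 CPM in WT and 51.6 and 47.6 CPM in TfR1-deficient cells.

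Among the other antiviral effectors, *Rsad2* (viperin, which makes a chain-terminating nucleotide) was at 4.67 and 2.81 CPM in WT and 6.92 and 8.03 CPM in TfR1-deficient cells. The groups did not overlap (log2 fold change 0.99, standard error 0.40, edgeR unadjusted p = 0.052), and it was called without WT replicate 1 (1.43). *Cmpk2*, its genomic neighbour and a nucleotide kinase, was at 22.4 and 10.6 against 23.8 and 27.7 CPM (log2 fold change 0.64, standard error 0.39, edgeR unadjusted p = 0.164). Its log2 fold change was 1.30 without WT replicate 1. In both genes the library with more macrophage transcripts was the higher one within each genotype, as for *Ifitm3*. *Samd9l*, a translation inhibitor, was at 233 and 237 CPM in WT and at 239 and 94.9 CPM in TfR1-deficient replicates 1 and 2. The other 3 libraries were alike and TfR1-deficient replicate 2 was low, and its log2 fold change of -0.50 (standard error 0.43) became 0.017 without that library and -1.28, a call, without TfR1-deficient replicate 1. *Mx1*, a dynamin-like GTPase, was low at 5.81 and 6.47 CPM in WT and 12.2 and 4.96 CPM in TfR1-deficient cells (log2 fold change 0.48, standard error 0.50). *Isg20*, an RNA exonuclease, was at 51.4 and 59.0 against 69.2 and 46.9 CPM, and *Eif2ak2*, encoding the RNA-activated kinase PKR, at 70.9 and 67.7 against 71.3 and 59.9 CPM. In *Mx1*, *Isg20* and *Eif2ak2* the highest library was TfR1-deficient replicate 1 and the lowest TfR1-deficient replicate 2.

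None of the 5 remaining induced genes was called. *Ifi35* was at 152 and 165 CPM in WT and 206 and 171 CPM in TfR1-deficient cells (log2 fold change 0.25, standard error 0.16), with no overlap between the groups. Exons of *Gm11626* overlap 16.8% of the exon bases of *Ifi35* on the opposite strand, which leaves its count uncertain. *Rtp4*, a chaperone of receptor proteins, was at 84.1 and 104 against 132 and 99.2 CPM (log2 fold change 0.30, standard error 0.20). *Ifi44* was barely expressed, with 18 and 21 counts in the WT libraries and 36 and 28 in the TfR1-deficient libraries. *Xaf1*, which opposes the apoptosis inhibitor XIAP, was at 47.9 and 53.9 CPM in WT and 49.4 and 40.0 CPM in TfR1-deficient cells. *Ifi27l2a* was at 137 and 139 against 151 and 111 CPM, a count made uncertain by the 40.8% of its 50-base stretches that it shares with *Ifi27l2b*. Per kilobase of exon, the mean level over the 4 libraries ran from 0.309 CPM per kb for *Ifi44*, 1.30 for *Rsad2* and 2.02 for *Mx1* to 72.7 for *Usp18*, 73.2 for *Ifit1*, 100.4 for *Ifi35* and 290.2 CPM per kb for *Ifi27l2a*.

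The 4 libraries were then ranked for each gene. TfR1-deficient replicate 1 was the highest library for 25 of the 34 genes (73.5%), against 27.7% of all tested genes, and TfR1-deficient replicate 2 was the lowest for 22 (64.7%), against 25% of all genes. With totals alone as the scale these counts were 25 and 20, and with DESeq2 size factors 24 and 22. Replicate 1 lay above replicate 2 of the TfR1-deficient pair for 30 of the 34 genes (88.2%, against 53.4% of all genes), by a median of 0.38 on the log2 scale (0.03 over all genes). The difference ran from 1.33 in *Samd9l*, 1.27 in *Mx1* and 1.16 in *Ifit3* down to -1.19 in *Ifitm3*. The 2 WT libraries showed no such order, with 16 of the 34 genes higher in replicate 1 and a median difference of -0.01. TfR1-deficient replicate 1 was the most deeply sequenced library and TfR1-deficient replicate 2 the richest in macrophage and erythroid transcripts, and the part of any of these in this order was not tested. With 1 library each, the difference between these 2 libraries has no replicate check. In bulk RNA, fewer cells with a response and less response per cell cannot be told apart.

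**Figure D3:**
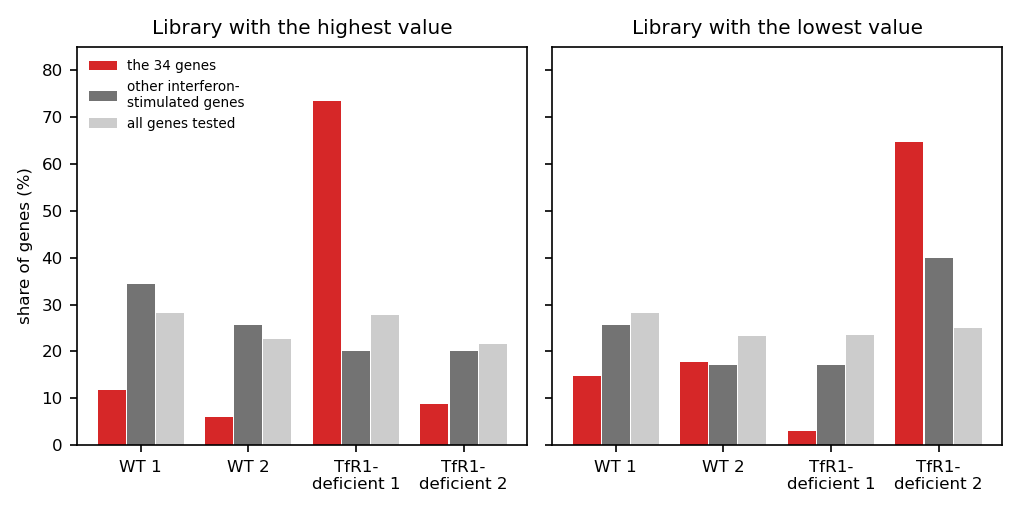
Percentage of genes for which each of the 4 libraries had the highest value and the lowest value, for the 34 interferon-stimulated genes, 35 other interferon-stimulated genes and all 12536 tested genes. Among the 34, TfR1-deficient replicate 1 is highest for 73.5% and TfR1-deficient replicate 2 lowest for 64.7%.

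The genotype difference depended on which libraries were set against each other. Between the 2 libraries poor in macrophage transcripts, TfR1-deficient replicate 1 and WT replicate 2, the 34 genes had a median log2 difference of 0.24. Of these, 30 were higher in the TfR1-deficient library (88.2%, against 51.1% of all genes), 10 by at least 0.5 (29.4%, against 14.1%) and 0 lower by at least 0.5. The largest differences were 1.32 for *Ifitm3*, 1.27 for *Oas2* and 1.26 for *Oasl2*. Between the 2 libraries rich in macrophage transcripts, TfR1-deficient replicate 2 and WT replicate 1, the median was -0.19 and 9 genes were higher in the TfR1-deficient library (26.5%, against 49.5% of all genes). There 2 genes were higher by at least 0.5 and 4 lower by at least 0.5, the lowest being *Samd9l* (-1.30). The pairs gave opposite signs for 21 of the 34 genes (61.8%, against 37.2% of all genes). Each pair is 1 library against 1 library, chosen after the macrophage transcripts had been seen, and carries no test. The 2 WT libraries had a median difference of -0.01 for the 34 genes. The pairs therefore mostly restate the order of the 2 TfR1-deficient libraries given above. The part of macrophage transcripts in that order was not tested.

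**Figure D4:**
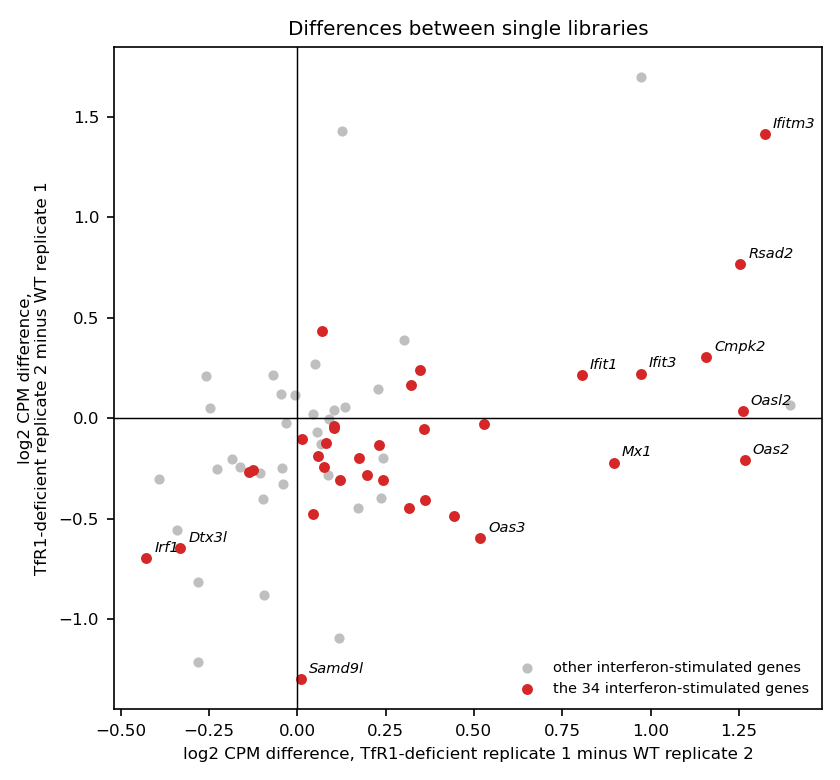
Log2 CPM differences of the 34 genes (red) and 35 other interferon-stimulated genes (grey), TfR1-deficient minus WT, within the pair of libraries poor in macrophage transcripts (x axis) and the pair rich in them (y axis). Points in the lower right quadrant are higher in the TfR1-deficient library of the first pair and lower in that of the second, and 21 of the 34 genes have opposite signs in the 2 pairs.

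The rest of the interferon pathway was read from a list of 85 further genes, of which 80 were found in the table and 66 tested. Their median log2 fold change was -0.03, with 30 genes above 0 and 36 below. By the unadjusted rule 3 were higher (*Trim21*, *Tlr7* and *Ifngr2*, where 1.60% of all genes were) and 5 lower (*Ifng*, *Irf4*, *Ticam1*, *Tyk2* and *Nlrc5*, where 2.48% were), and after adjustment edgeR called 0, with 10 at an unadjusted p under 0.05, and DESeq2 0. Both TfR1-deficient libraries lay above both WT libraries for 9 of the 66 (13.6%, against 16.0% of all genes) and below both for 18 (27.3%, against 18.9%). The list includes 35 other interferon-stimulated genes tested, with a median of -0.03. For these, TfR1-deficient replicate 1 was the highest library in 7 (20%, against 27.7% of all genes). TfR1-deficient replicate 2 was the lowest in 14 of them (40.0%, against 25% of all genes). Their median difference between the 2 TfR1-deficient libraries was 0.10, beside the 0.38 of the 34 genes.

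Apart from *Ifng*, the interferon transcripts that were listed and matched were at or near 0 counts. *Ifna1* and *Ifna5* matched no counted gene, and the list does not cover every interferon alpha gene. *Ifnb1*, *Ifne*, *Ifna2*, *Ifna4*, *Ifnl2* and *Ifnl3* had 0 counts in all 4 libraries, which allows up to 3 counts, or 0.174 to 0.277 CPM in a library before TMM scaling, counting error alone considered. *Ifnk* had 11 and 2 counts in WT and 1 and 4 in TfR1-deficient cells. *Ifng*, the type II interferon, was at 16.3 and 8.90 CPM in WT and 2.13 and 5.91 CPM in TfR1-deficient cells (log2 fold change -1.65, standard error 0.60, edgeR unadjusted p = 0.039, adjusted p = 0.911). Both TfR1-deficient values lay below both WT values.

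The receptor chains of the type I interferons overlapped between the genotypes. *Ifnar1* was at 454 and 590.3 CPM in WT and 699.8 and 458 CPM in TfR1-deficient cells (log2 fold change 0.15, standard error 0.26), and *Ifnar2* at 63.4 and 44.6 against 53.0 and 63.1 CPM (log2 fold change 0.10, standard error 0.22). The chains of the interferon gamma receptor lay on opposite sides of 0, with *Ifngr1* at 744 and 763 against 542 and 591 CPM (log2 fold change -0.41, standard error 0.13, edgeR unadjusted p = 0.026) and *Ifngr2* at 26.8 and 29.5 against 40.8 and 39.5 CPM (log2 fold change 0.51, standard error 0.17, edgeR unadjusted p = 0.031). Both had adjusted p = 0.911 in edgeR and groups that did not overlap. *Ifnlr1*, the type III receptor chain, had 0 counts, and its partner *Il10rb* was at 53.5 and 60.6 against 59.9 and 55.0 CPM.

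Of the kinases, *Tyk2*, which docks on IFNAR1, was at 206 and 165 CPM in WT and 131 and 121 CPM in TfR1-deficient cells (log2 fold change -0.56, standard error 0.17, edgeR unadjusted p = 0.019, adjusted p = 0.911), with both TfR1-deficient libraries lower. *Jak1* was at 1335 and 1148 against 1412 and 1447 CPM (log2 fold change 0.20, standard error 0.14) and *Jak2* at 44.7 and 54.2 against 64.5 and 52.4 CPM (log2 fold change 0.24, standard error 0.19). The transcription factor *Stat3* was at 731 and 755 against 844 and 692 CPM. For *Stat3*, as for many of the 34 genes, the highest value was that of TfR1-deficient replicate 1 and the lowest that of TfR1-deficient replicate 2.

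The other called genes have varied roles. *Trim21*, a cytosolic antibody receptor and ubiquitin ligase, had the lowest p of the pathway, at 7.04 and 10.5 CPM in WT and 20.7 and 23.1 CPM in TfR1-deficient cells (log2 fold change 1.32, standard error 0.30, edgeR unadjusted p = 0.0062, adjusted p = 0.911, DESeq2 adjusted p = 0.051). Its change stayed between 1.08 and 1.63 with any library left out. *Tlr7*, an endosomal RNA receptor, was at 31.6 and 29.2 against 44.1 and 43.4 CPM (log2 fold change 0.53, standard error 0.16, edgeR unadjusted p = 0.023). Lower were *Irf4*, an IRF needed for effector Treg cells (61.4 and 29.9 CPM in WT, 21.3 and 25.2 CPM in TfR1-deficient, log2 fold change -0.98), and *Ticam1*, the adaptor TRIF (7.78 and 5.81 against 3.4 and 3.58 CPM, log2 fold change -0.96). *Nlrc5*, an activator of MHC class I genes (353 and 334 against 275 and 201 CPM, log2 fold change -0.53), was lower too, while *Adar*, an RNA-editing enzyme (180.2 and 165 against 130.1 and 122 CPM, log2 fold change -0.45), had an edgeR unadjusted p of 0.021 and missed the minimum change. Each of the 8 calls but that of *Trim21* was lost without at least 1 library. Without WT replicate 1 the log2 fold change was -1.12 for *Ifng*, -0.37 for *Tyk2*, -0.35 for *Irf4*, -0.72 for *Ticam1*, -0.47 for *Nlrc5* and 0.46 for *Ifngr2*, and 0 genes of the list were called lower. The call of *Tlr7* was lost without WT replicate 2 (0.47).

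**Figure D5:**
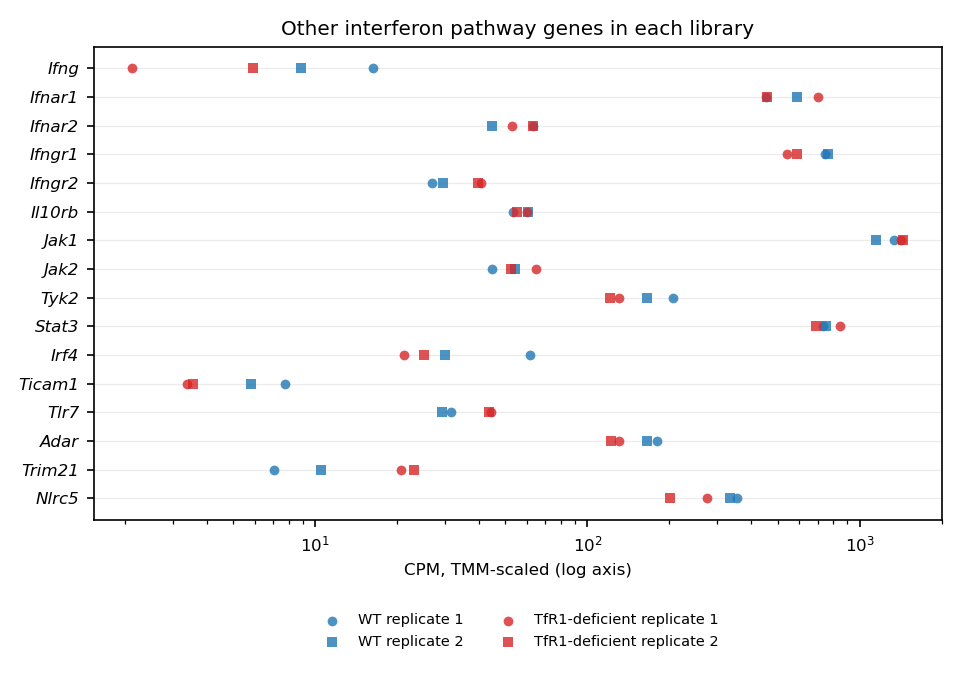
CPM (log scale) in the 4 libraries for the interferon receptors, the kinases and *Stat3* and for the pathway genes with an edgeR unadjusted p under 0.05. *Trim21* is higher and *Tyk2* and *Ifng* lower in both TfR1-deficient libraries, while *Ifnar1* overlaps between the groups.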

How the data were processed

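RNA-seq counts of 4 libraries, 2 WT and 2 TfR1-deficient by their labels, were analysed. The authors deposited raw read counts for each Ensembl gene, neither normalized nor pooled. The submitters' processing notes name Trim Galore 0.6.7, STAR 2.7.9a, featureCounts and mm10, while the study's methods name STAR and mm9. The annotation release, the strand setting and the handling of multiply mapped reads are not given in the sources used here, which leaves the counts of overlapping and near-identical genes uncertain. Of 47729 rows, 0 named no gene, and 32799 had a symbol.

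From the deposited counts, 12536 genes were kept by filterByExpr, scaled with TMM factors and compared by edgeR's quasi-likelihood test (edgeR 4.0.16, R 4.3.3, two-sided, genotype only). Calls used the study's rule, an unadjusted p under 0.05 with a log2 fold change of 0.5 or more in either direction, or a Benjamini-Hochberg adjusted p under 0.05. Standard errors were taken as the log2 fold change over the root of the F statistic, and log2 CPM used a prior count of 2. DESeq2 1.42.0, other scaling and filters, a replicate block and the omission of each library were alternatives. With totals of 10841939 to 17278448 counts, the spread between libraries, not counting error, was the main limit for well-counted genes. For genes with few counts, such as *Ifi44* (18 to 36 counts per library), counting error adds to it. Replicates differed beyond counting noise (chi-square per degree of freedom 20.7 in WT and 32.1 in TfR1-deficient). Of the 34 genes all were to be named, and of the 80 other pathway genes the receptors, kinases, *Stat3* and those at an unadjusted p under 0.05. The members, the lists (pathway and cell type markers) and the tests were chosen with earlier results of these data known. Shared 50-base stretches and exon overlaps came from GENCODE vM1, and promoters and coordinates from RefSeq, GRCm38.p6. A further gene of the pathway list is counted with it but not reported here.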

Additional observations from a re-analysis of the deposited data

How the results depend on the processing

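With 2 libraries a genotype, counts of calls depended on the fit. Of all genes, 200 were called higher and 311 lower without adjustment, and 0 after it. Without a count filter 650 were higher and 445 lower before adjustment, so that most calls were then higher, and 167 and 95 after it. DESeq2 called 7 higher and 37 lower after adjustment, and leaving out 1 library gave 169 to 353 higher and 131 to 382 lower, with the lone library of a genotype assumed to vary like the others. Of the 34 genes (0 higher, 1 lower), DESeq2 called 1 higher, scaling by totals 1, a filter of 10 counts per library 2 and no filter 6 (1 after adjustment). With no minimum change 2 were lower. Leaving out 1 library gave 0 to 4 higher and 0 to 2 lower, and moved the median from -0.17 to 0.24. Of the other pathway genes (3 higher, 5 lower), 5 were higher without a filter, with 1 higher and 2 lower after adjustment, and 3 were lower when scaled by totals. Leaving out 1 library gave 1 to 3 higher and 0 to 5 lower, and medians from -0.092 to -0.0054.

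Same-numbered libraries deviated in opposite directions (correlation -0.61), and the main fit used no block. With 2 libraries a genotype this correlation cannot show whether same-numbered libraries were prepared together, which the sample labels do not state. With a replicate block 70 genes were higher and 141 lower, 0 of the 34 were lower and 1 pathway gene was higher and 0 lower. *Irf1* was then at -0.56, *Irf7* at -0.022, *Ddx58* at -0.011 and *Parp14* at -0.064. Crossed pairs, chosen after seeing the data, gave 596 genes higher and 519 lower (174 and 265 after adjustment), 6 and 2 of the 34 (1 and 2) and, of the pathway genes, 1 higher and 6 lower after adjustment, with *Irf7* at -0.020, *Ddx58* at -0.010 and *Parp14* at -0.060.

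Genes near 0 changed sign. Scaled by totals, *Dhx58* was at 0.0053, *Zbp1* 0.022, *Ifit2* 0.016, *Oas3* 0.0062 and *Oasl1* 0.019, and with at least 10 counts *Zbp1* was at 0.0035 and *Oasl1* at 0.0030. As single libraries were omitted, log2 fold changes ran across 0 for 25 of the 50 genes followed: *Stat2* -0.045 to 0.13, *Irf9* -0.16 to 0.057, *Irf7* -0.35 to 0.33, *Ddx58* -0.16 to 0.17, *Dhx58* -0.27 to 0.27, *Zbp1* -0.30 to 0.24, *Ifit1* -0.0095 to 1.02, *Ifit2* -0.20 to 0.16, *Oas3* -0.34 to 0.26, *Oasl1* -0.081 to 0.069, *Isg15* -0.24 to 0.55, *Usp18* -0.082 to 0.17, *Herc6* -0.029 to 0.56, *Parp9* -0.43 to 0.0069, *Parp14* -0.50 to 0.40, *Bst2* -0.071 to 0.0089, *Mx1* -0.27 to 0.98, *Eif2ak2* -0.18 to 0.038, *Isg20* -0.20 to 0.32, *Samd9l* -1.28 to 0.017, *Ifi27l2a* -0.29 to 0.13, *Ifnar1* -0.16 to 0.42, *Ifnar2* -0.13 to 0.40, *Il10rb* -0.06 to 0.10 and *Stat3* -0.069 to 0.18. The cause of a lost or gained call was not tested.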
